A study of Arabidopsis thaliana with 6 samples.

Results

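Seed storage proteins are the nitrogen and sulphur reserve that the Arabidopsis thaliana embryo lays down during seed maturation and consumes as a seedling. The set described here is the transcripts for the 2S albumins (SESA1 to SESA5) and the 12S cruciferins (CRU1 to CRU3), 8 genes chosen by name or by the words 2S or 12S seed storage protein in the authors' probe set titles. The rule found 7 of the 22746 probe sets tested, all 7 by title and 0 by symbol. Of these, 6 carry a gene name: SESA1, SESA2, SESA3, SESA4, CRU1 (titled CRA1) and CRU2 (titled CRB). The other probe set, 253767_at, is titled a putative cruciferin without a gene and is called the putative cruciferin below. No probe set was paired with SESA5 or CRU3 by name. Whether the putative cruciferin is CRU3 could not be settled from the names used here, so its values are not credited to a gene, and SESA5 is not analysed here.

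The 2S albumins are small, cysteine-rich proteins cut from a precursor into a light and a heavy chain held together by disulphide bonds. The 12S cruciferins are legumin-type globulins of the cupin fold, which are cleaved in the storage vacuole into an acidic and a basic chain and assembled into hexamers. Both classes are switched on in maturation by the B3-domain factors ABI3, FUS3 and LEC2 together with bZIP factors. Their messages persist in the dry seed and disappear during germination, and abscisic acid (ABA), a hormone that delays germination, can prolong maturation-type expression.

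RNA came from whole seeds of accession Columbia-0 (Col-0), either wild type or carrying the anac089-2 mutation in the NAC transcription factor gene ANAC089, in the same background. Seeds of both groups were kept in water in the dark at 4 °C for 3 days and then moved to light at 22 °C with 5 µM ABA for 3 h, before germination. Each group had 3 biological replicates on 1 Affymetrix ATH1 array each, and no seeds without ABA are among them, so every difference is one between genotypes in the presence of ABA. One mutant allele was used, and the labels do not say what the mutation changes in the gene. Whole seeds mix embryo, endosperm and seed coat, and fewer cells of a type and less RNA per cell cannot be told apart. Values are log2 signals after robust multi-array averaging (RMA), and differences are anac089-2 minus wild type. Probe sets bind with different strength, so a signal is compared between arrays and not between genes.

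The signal of ANAC089 itself was not read here, so the labels were not checked against the mutated gene. The seed label was checked with EM1 and EM6, which encode late embryogenesis abundant (LEA) proteins of mature seeds: their mean log2 signals were 12.42 and 13.96 in wild type. The leaf genes CA1 and LHCB5 had mean signals between 3.27 and 3.52 in both groups, and the seed coat genes TT2, TTG2 and BAN between 2.71 and 3.12. Array medians lay between 3.97 and 4.01 except for 3.80 on wild-type replicate 3, which stood apart from the others. Its mean correlation with its own group was 0.982, against 0.987 to 0.996 for the other arrays. Results are therefore also given without that array.

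Of the 7 storage protein probe sets, 4 fell in anac089-2, 0 rose and 3 did not pass the threshold of 0.05 on the adjusted p-value. Those that fell were 3 of the 4 albumins (SESA1, SESA2 and SESA4) and 1 of the 3 cruciferins (CRU2). Over all probe sets 4.92% passed, 1.98% as lower and 2.94% as higher. The median log2 fold change was -0.66 over the 7 probe sets and 0.04 over all. Groups did not overlap, with anac089-2 below wild type, for the same 4 probe sets, and for 8.23% of all probe sets. Every adjusted p-value here is limma's, with Benjamini-Hochberg adjustment over all probe sets.

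SESA4 had the largest difference of the set. Its log2 signal was 10.64, 10.65 and 10.95 in the wild-type seeds and 9.67, 9.43 and 9.23 in anac089-2. The lowest wild-type array lay 0.97 above the highest mutant array. The message fell 2.47-fold, to 40.5% of the wild-type signal, a log2 difference of -1.30 with a 95% confidence interval of -1.65 to -0.96 (SE 0.148, 3 arrays a group, limma adjusted p = 0.0117).

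SESA2 read 9.62, 9.33 and 9.51 in wild type and 8.94, 8.49 and 8.28 in anac089-2. The groups lay 0.39 apart, and the mutant arrays spread more (SD 0.337) than the wild-type arrays (SD 0.146). SESA2 fell by 0.92 on the log2 scale (SE 0.179, limma adjusted p = 0.0341), to 53.0% of wild type.

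SESA1 read 10.42, 10.28 and 10.55 in wild type and 9.72, 9.63 and 9.58 in anac089-2. All mutant arrays were below all wild-type arrays, with a gap of 0.56. SESA1 fell by 0.77 (SE 0.107, limma adjusted p = 0.0146), to 58.5% of wild type.

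SESA3 did not pass. It read 12.74, 12.59 and 13.00 in wild type and 12.59, 12.51 and 12.47 in anac089-2. The groups touched at 12.59, and the wild-type spread came mainly from replicate 3. The log2 fold change was -0.25 (SE 0.126, limma adjusted p = 0.335), with an interval of -0.55 to 0.04, and it was -0.14 without wild-type replicate 3.

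In RefSeq's gene order (TAIR10.1), SESA1, SESA2, SESA3 and SESA4 follow one another with 0 genes between each neighbouring pair. The albumin whose change did not pass, SESA3, therefore sits in the array of tandem genes between SESA2 and SESA4, both of which fell. The 4 genes are close relatives, and no probe sequences were used here, so how far each probe set also binds the messages of its neighbours was not tested. All 4 probe sets are of the type that the array's design marks as matching 1 gene.

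**Figure D1:**
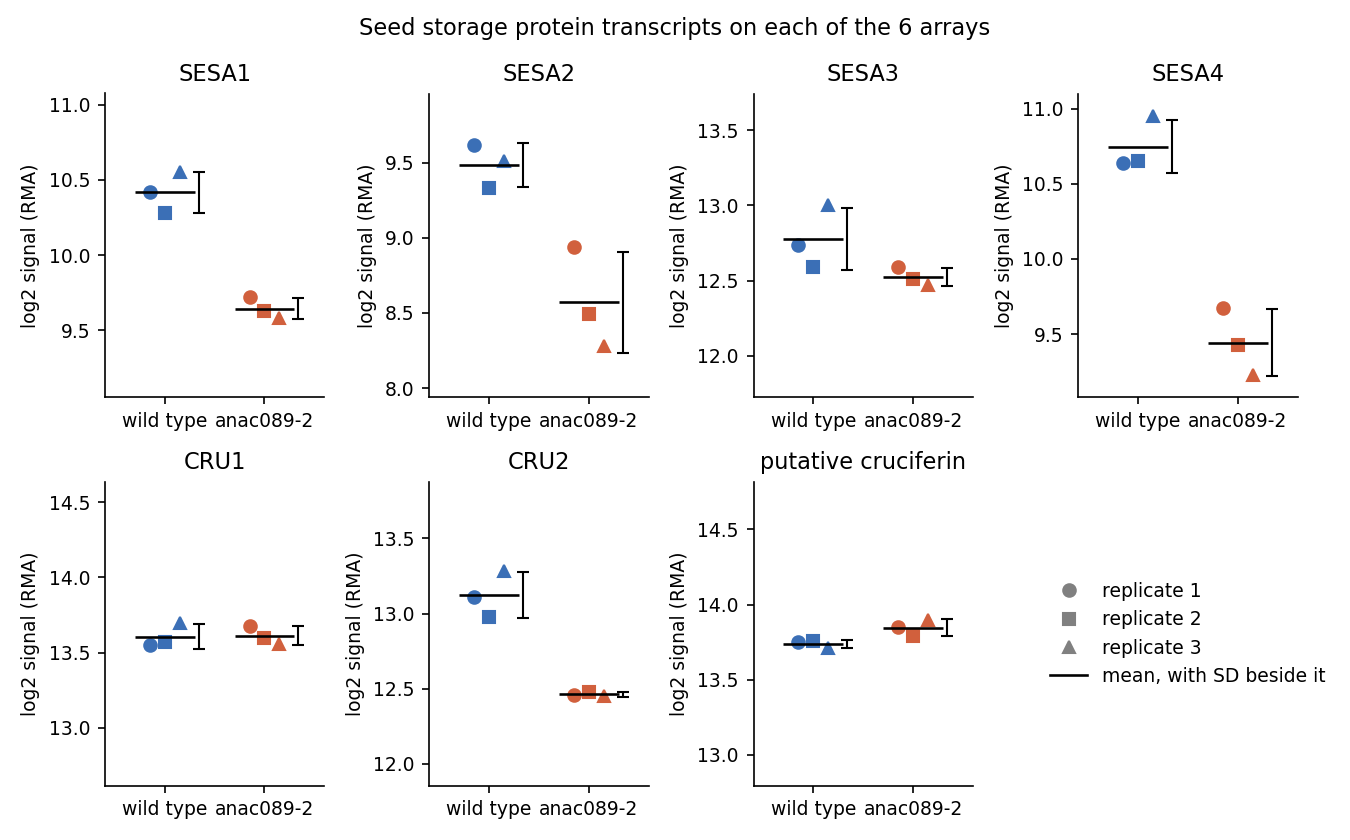
Log2 signal (vertical axis, RMA values) of the 7 storage protein probe sets on each array, wild type in blue and anac089-2 in orange. Marker shape gives the replicate number, the line is the group mean and the bar beside it the SD (n = 3). All panels span the same number of log2 units. The groups are apart for SESA1, SESA2, SESA4 and CRU2, with anac089-2 lower, while the CRU1 values overlap around 13.6.

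Among the cruciferins, CRU2 fell. Its log2 signal was 13.11, 12.98 and 13.28 in wild type and 12.46, 12.48 and 12.45 in anac089-2. The mutant arrays agree within 0.03, the tightest group of the set, and lie 0.50 below the lowest wild-type array. The log2 fold change was -0.66 (SE 0.107, limma adjusted p = 0.0209), which is 63.3% of the wild-type signal.

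CRU1 read 13.55, 13.57 and 13.70 in wild type and 13.68, 13.60 and 13.56 in anac089-2. The 2 groups covered almost the same range. The log2 fold change was 0.01 (SE 0.096, limma adjusted p = 0.978), and its 95% confidence interval, -0.22 to 0.23, does not reach the change of CRU2. The sign of this value turned in 4 of 16 alternative settings, and it did not pass in any of the 16.

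The putative cruciferin read 13.75, 13.76 and 13.71 in wild type and 13.85, 13.79 and 13.90 in anac089-2. All mutant arrays were above all wild-type arrays, by a margin of hundredths of a log2 unit, as for 15.8% of all probe sets. The difference of 0.11 (SE 0.089, limma adjusted p = 0.582) did not pass.

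Whether the storage messages changed unequally was asked with the log2 ratio of one probe set to another within each array, which removes any scaling of the array as a whole. Neighbouring albumins and each pair of cruciferins gave 6 ratios. The ratio of SESA4 to SESA3 shifted by -1.05, that of SESA2 to SESA3 by -0.66, that of CRU2 to CRU1 by -0.67 and that of CRU2 to the putative cruciferin by -0.77. In these 4 pairs the groups did not overlap. SESA2 to SESA1 shifted by -0.14 and CRU1 to the putative cruciferin by -0.10, with overlapping groups. The exact two-sided permutation p was 0.1 for each of the 4 separated pairs, the smallest that 3 arrays against 3 allow, and 0.5 and 0.6 for the others. Adjusted over the 6 pairs these became 0.15 and 0.6, so none could pass. The ratios use the same values as the calls above, so they describe those calls and are not separate support. They do not remove effects that differ with signal, and the paired probe sets differ in signal.

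**Figure D2:**
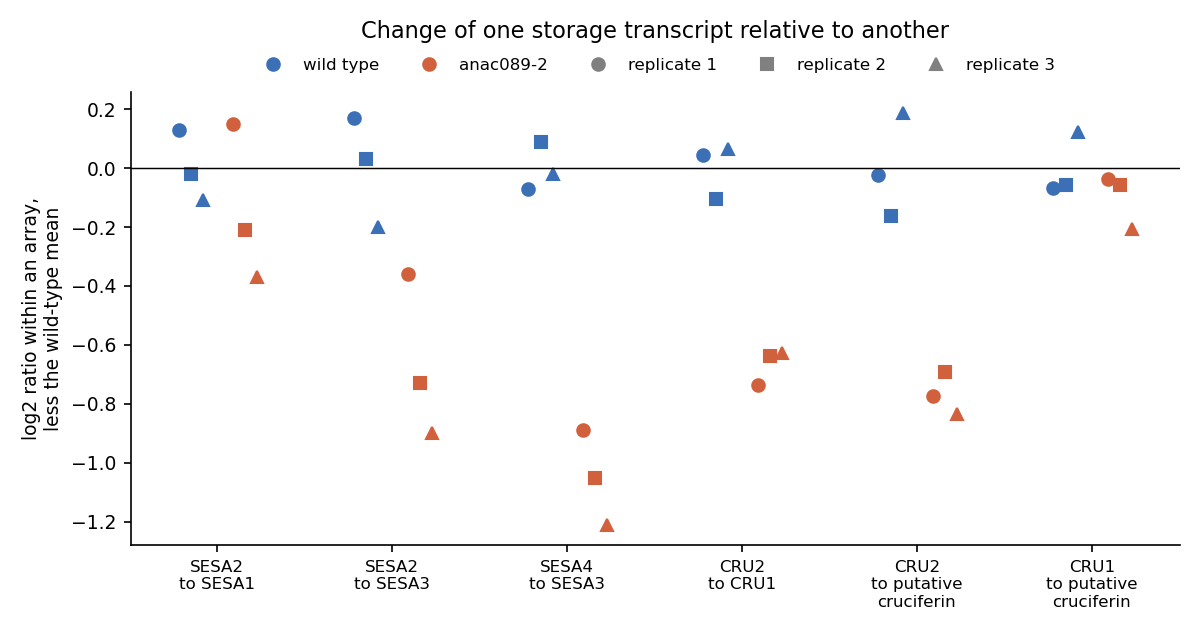
Log2 ratio of one storage protein probe set to another within each array (vertical axis), set to 0 at the wild-type mean of each pair. Wild type is blue, anac089-2 orange, and the marker shape is the replicate number. SESA4 relative to SESA3 shifted the most, by -1.05, and SESA2 relative to SESA1 overlaps between groups.

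The storage probe sets also differ in signal. SESA1, SESA2 and SESA4 had mean signals of 10.03, 9.03 and 10.1 over the 6 arrays. SESA3, CRU2, CRU1 and the putative cruciferin had 12.65, 12.79, 13.61 and 13.79, among the 42 brightest probe sets of the array. Of the 24 probe sets with a mean of at least 13, 0 passed in limma and 7 had an unadjusted p under 0.05. Over all 22746 probe sets, 4390 had an unadjusted p under 0.05. At 12 to 13, 8 of 66 (12.1%) passed, 5 as lower, and at 10 to 12, 151 of 525 (28.8%), 62 as lower. At 8 to 10, the class of SESA2, 337 of 2127 (15.8%) passed, 173 as lower. At 2 to 4, 30 of 11523 (0.26%) passed. The middle 90% of log2 fold changes ran from -0.37 to 0.33 in the brightest class and from -0.95 to 0.80 at 10 to 12. Whether the top of the array's signal range limited the differences of CRU1, SESA3 and the putative cruciferin was not tested.

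**Figure D3:**
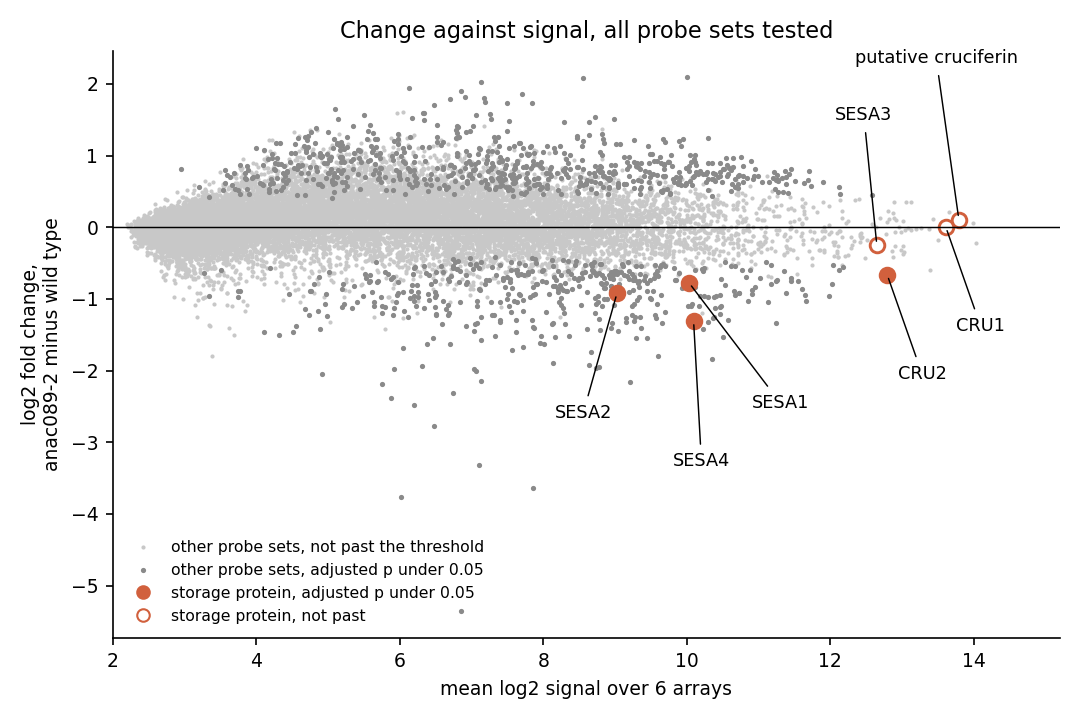
Log2 fold change, anac089-2 minus wild type (vertical axis), against mean log2 signal over the 6 arrays (horizontal axis) for all 22746 probe sets. Storage protein probe sets are in orange, filled where the adjusted p is under 0.05, and dark grey points are other probe sets under that threshold. SESA1, SESA2 and SESA4 lie at mean signals of 9.03 to 10.1, and the other 4 storage probe sets at 12.65 to 13.79.

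Further cupin proteins resemble the cruciferins, and 5 of 5 such genes listed were measured. Of these, 2 fell, 0 rose and 3 did not pass, with a median of -0.61, where 4.92% of all probe sets passed in either direction. Among the 9 probe sets with a cupin family title, a wider group chosen after the values were seen, 2 fell and 7 did not pass. Their median was -0.25, and 3 of the 9 had mean signals under 4. AT1G03890, which lies next to CRU2 with 0 genes between them in the RefSeq annotation, read 10.61, 10.79 and 10.94 in wild type and 9.58, 9.96 and 9.87 in anac089-2. The groups were well apart, and the gene fell by 0.98 (SE 0.140, limma adjusted p = 0.0154). AT4G36700 fell by 0.61 (SE 0.102, limma adjusted p = 0.0222). The remaining 3 are named here after their values were seen. PAP85, a vicilin-type protein, had a mean of 13.7 in both groups with an interval for the difference of -0.21 to 0.21. AT2G28490 had -0.25 (adjusted p = 0.221). AT2G18540 had -1.32 (adjusted p = 0.106), and its wild-type value came from 5.17, 5.30 and 6.61, with replicate 3 far above the others. Without that array AT2G18540 had -0.86 and passed (limma adjusted p = 0.0439).

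Of 19 listed regulators of seed maturation, 10 were measured under a name found here. None passed in limma, and 3 had an unadjusted p under 0.05, where 4390 of all 22746 probe sets did. FUS3, ABI5, BZIP10, BZIP25 and BZIP67 were not among them. The largest values were those of ABI4, an AP2-type transcription factor of ABA response, and of ABI3, the B3-domain activator of storage protein genes. ABI4 read 6.79, 6.49 and 6.25 in wild type and 7.02, 7.21 and 7.47 in anac089-2, a difference of 0.72 (SE 0.173, limma adjusted p = 0.0622). ABI3 read 8.51, 8.88 and 8.91 in wild type and 9.27, 9.11 and 9.43 in anac089-2, a difference of 0.50 (SE 0.145, limma adjusted p = 0.106). For both, all mutant arrays were above all wild-type arrays (15.8% of all probe sets), the opposite side from SESA1, SESA2, SESA4 and CRU2. Of the 10, 3 separated on this side and 0 on the lower side, where 8.23% of all probe sets did. The one besides ABI4 and ABI3 was EEL (0.39, limma adjusted p = 0.0812), named after its value was seen. The median log2 fold change over the 10 was 0.16, and 4 of them had mean signals under 4.

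Precursors of both storage classes are matured by vacuolar processing enzymes (VPE), and aspartic proteases act on the 2S albumins. Of 17 listed genes of processing and vacuolar sorting, 8 were measured, with a median of -0.08. None passed in limma, and 0 had an unadjusted p under 0.05, where 4390 of all 22746 probe sets did. BETA-VPE, the seed-type processing enzyme, read 11.74, 11.77 and 11.99 in wild type and 11.74, 11.59 and 11.67 in anac089-2. The groups touched, and the difference was -0.17 (adjusted p = 0.469). BETA-VPE was named for this role, after its value was seen. The largest values of the list were those of MAG2 and of the aspartic protease gene AT4G04460. MAG2, which takes part in export of storage precursors from the endoplasmic reticulum, had 0.41 (adjusted p = 0.521), and 0.06 without wild-type replicate 3. AT4G04460 had -0.18 (adjusted p = 0.489) at a mean signal of only 2.81. Mean signals were under 4 for 3 of the 8 genes.

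Cysteine proteases take part in breaking down storage protein after germination. Of 8 listed genes 3 were measured, 1 rose and 2 did not pass, where 2.94% of all probe sets rose. AT4G01610, titled a cathepsin B-like protease, read 8.01, 7.72 and 7.58 in wild type and 8.93, 8.61 and 8.89 in anac089-2. All mutant arrays were higher, and the message rose 2.06-fold, by 1.04 on the log2 scale (SE 0.147, limma adjusted p = 0.0151). AT1G02305, titled the same way, had 0.18 (adjusted p = 0.485) and was named after its value was seen. ALP, also named after its value was seen, went the other way, with -0.19 (limma adjusted p = 0.392). All its mutant arrays were below all its wild-type arrays, as for 8.23% of all probe sets.

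**Figure D4:**
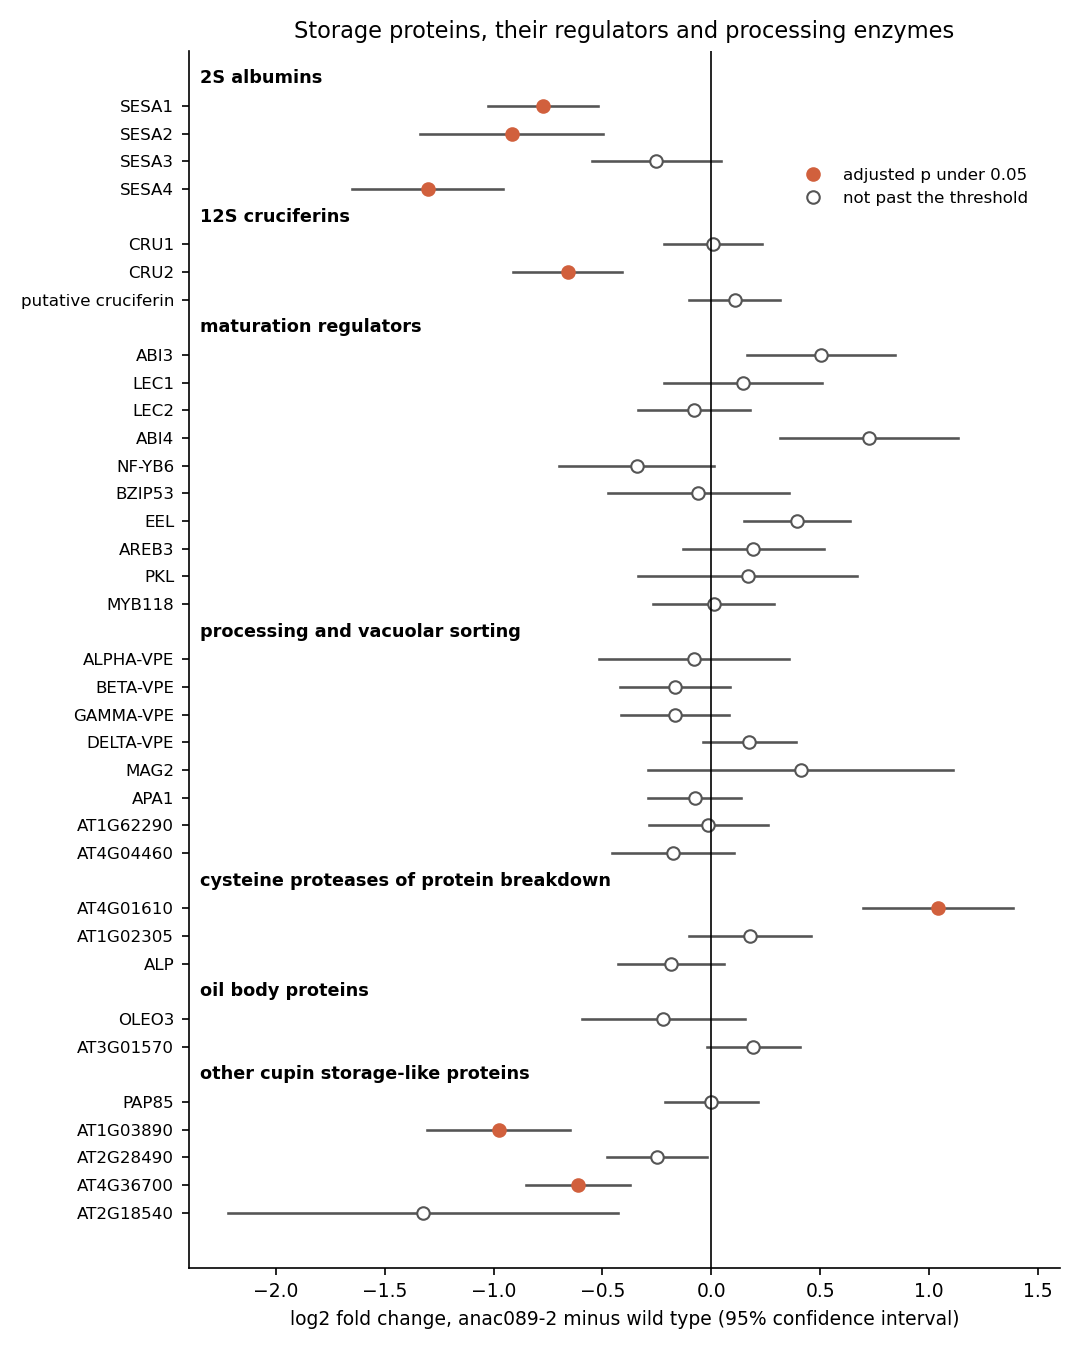
Log2 fold change with 95% confidence interval (horizontal axis) of the storage protein probe sets and of each measured gene of 5 lists. Filled points have an adjusted p under 0.05. Filled points below 0 are SESA1, SESA2, SESA4, CRU2, AT1G03890 and AT4G36700, and the filled point above 0 is AT4G01610.

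Oil body coat proteins and LEA proteins accumulate in the same maturation phase. Of 7 listed oil body genes 2 could be matched by name, OLEO3 (-0.22, adjusted p = 0.519) and AT3G01570 (0.19, adjusted p = 0.303). By title, 12 probe sets were oleosins or caleosins, with a median of -0.06 and a lowest value of -0.48. Of the 12, 3 had mean signals under 4. None of the 12 passed in limma, and 1 had an unadjusted p under 0.05, where 4390 of all 22746 probe sets did. Bright members had mean signals of 12.1, 12.87, 12.99, 13.04 and 13.72. Over all probe sets, 8 of 66 passed at 12 to 13 and 0 of 24 at 13 or above. The other oleosin or caleosin means were 8.97, 9.8, 10.44 and 10.8, where 15.8% (8 to 10) and 28.8% (10 to 12) of all probe sets passed. Whether the top of the signal range limited the oleosin and caleosin differences was not tested. Of 37 probe sets titled late embryogenesis abundant, 9 fell and 1 rose, with a median of -0.08. Over all probe sets 1.98% fell and 2.94% rose. Mean signals were under 4 for 15 of the 37. Groups did not overlap for 15 of the 37 with anac089-2 lower and for 2 with it higher. Over all probe sets these shares were 8.23% and 15.8%. Of the 37, 8 had mean signals of 10 to 12, the range in which 28.8% of probe sets passed in either direction. Among all 525 probe sets of that range, 62 fell. The 8 LEA probe sets all fell except that with a log2 fold change of -0.06 (limma adjusted p = 0.858). A further 66 probe sets had the family title seed storage/lipid transfer protein. Of these 0 fell and 0 rose, with a median of -0.01, and 6 had an unadjusted p under 0.05. Mean signals were under 4 for 56 of the 66. These title groups were chosen after the values were seen, and their difference from the storage proteins was not tested.

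Markers of germination progress were measured beside the storage genes, since storage messages decline as germination advances. Of 5 listed genes 4 were measured, 2 rose and 2 did not pass, where 2.94% of all probe sets rose. EXPA1, an expansin, read 6.94, 7.43 and 6.56 in wild type and 8.78, 8.63 and 8.73 in anac089-2, and rose by 1.74 on the log2 scale (SE 0.208, limma adjusted p = 0.0117). EXPA9 passed with a difference of 0.43 from a signal of 3.12, as low as the signals of the leaf genes CA1 and LHCB5, and EXPA2 had 1.22 (adjusted p = 0.0645). EM1 fell by 0.79 (limma adjusted p = 0.0262), while EM6 had 0.05 (adjusted p = 0.798). EM6 had a mean signal of 13.99 over the 6 arrays, in the class of at least 13, where 0 of 24 probe sets passed. EM1 had 12.02. Whether the top of the signal range limited the difference of EM6 was not tested. Of the 4 measured genes listed as endosperm markers, FIS2 and FWA had mean signals under 3. Whether these genes mark the endosperm of seeds at this stage was not tested. None of the 4 passed in limma (range -0.20 to 0.71), and 0 had an unadjusted p under 0.05, where 4390 of all 22746 probe sets did. The highest value was that of FIE, which was 0.27 without wild-type replicate 3. The part of seed stage or tissue makeup in the storage protein differences was not tested.

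Across the 6 arrays, the mean-centred values of the 7 storage probe sets averaged 0.26, 0.17 and 0.39 in wild type and -0.16, -0.30 and -0.36 in anac089-2. This average was highest on wild-type replicate 3, while SESA2 was highest on wild-type replicate 1 and the putative cruciferin was lowest on wild-type replicate 3. Among 6835 other probe sets with a mean signal of at least 6, the closest by Pearson correlation with this profile was the histone H2B gene HTB2 (r = 0.996), which fell by 1.44 (adjusted p = 0.0120). Next came AT1G35190, an oxidoreductase by its title (0.995), probe set 248025_at, titled a putative nitrate-responsive NOI protein (0.993), AT5G40340, a PWWP domain protein (0.990), and AT3G61980, a Kazal-type protease inhibitor (0.989). Of these 5, HTB2 and AT5G40340 (-0.67, adjusted p = 0.0210) passed. The 6 points fall into the 2 genotypes, so these correlations mostly restate the difference between groups and are given as a description.

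Among the members themselves, SESA1, SESA4 and CRU2 followed each other most closely, with r of 0.990 for SESA1 with SESA4, 0.993 for SESA1 with CRU2 and 0.974 for SESA4 with CRU2. CRU1 correlated with the other 6 probe sets at -0.22 to 0.55, and the putative cruciferin with the 4 albumins at -0.88 to -0.78. These values share the same arrays and the same 2 groups.

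Leaving out wild-type replicate 3, the array that stood apart, left all 4 calls in place. The values without it were -1.20 for SESA4, -0.91 for SESA2, -0.71 for SESA1 and -0.58 for CRU2, with adjusted p-values from 0.0116 to 0.0441. Leaving out other single arrays removed calls. Without anac089-2 replicate 1 or replicate 3, 0 of the 4 passed in limma and all 4 had an unadjusted p under 0.05, with adjusted p-values of 0.0601 to 0.110 and of 0.0824 to 0.130, and over all probe sets 6 and 4 passed. Without anac089-2 replicate 2, SESA4 passed. Without wild-type replicate 1, SESA1 and SESA4 passed, and without wild-type replicate 2, SESA1, SESA4 and CRU2. The log2 fold changes ran between -1.42 and -1.20 for SESA4 and between -0.73 and -0.58 for CRU2. Outside the set, AT1G03890 (-0.90), AT4G36700 (-0.63), AT4G01610, EXPA1 (1.53), EXPA9 and EM1 (-0.67) also passed without wild-type replicate 3, and none of these 6 passed without anac089-2 replicate 1 or without replicate 3.

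**Figure D5:**
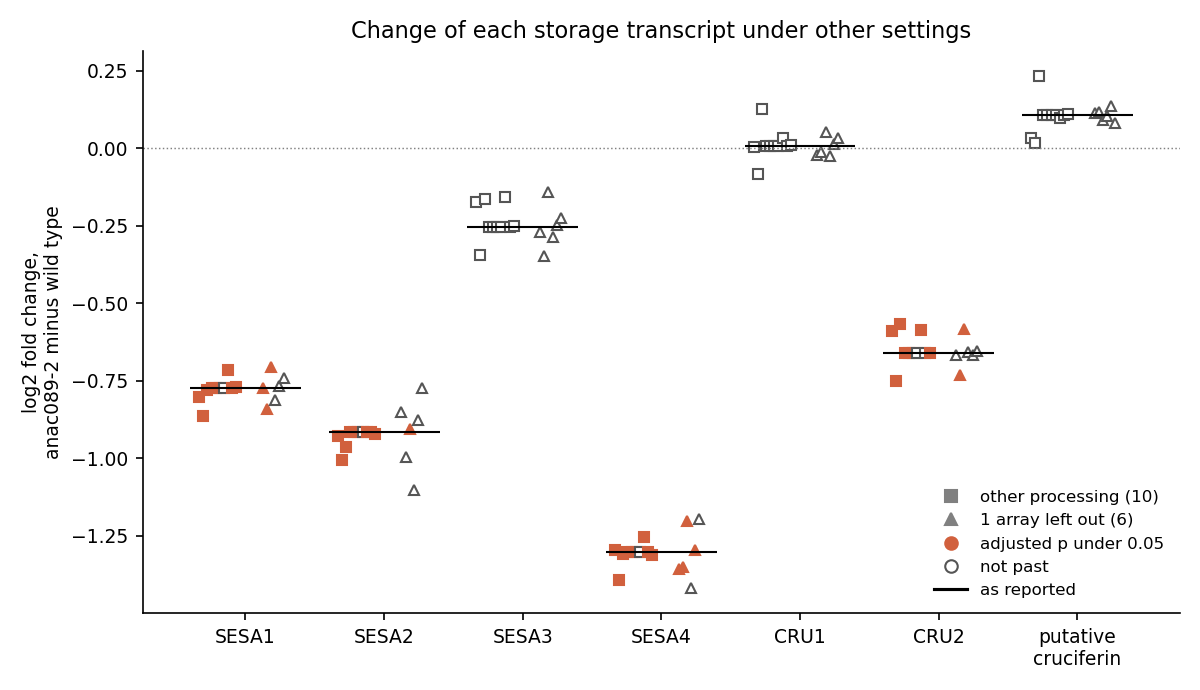
Log2 fold change of each storage protein probe set (vertical axis) under 10 other processing settings (squares) and with 1 array left out (triangles). The line is the value as reported, and filled markers have an adjusted p under 0.05. SESA4 stays between -1.42 and -1.20 throughout, while its call is lost in 3 settings.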

How the data were processed

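Biotin-labelled RNA of 6 seed samples was hybridised to ATH1 arrays, according to the labels and the platform named in the probe table. Each deposited value is a log2 expression value of a probe set, made by the authors with RMA, and their notes also name limma. Versions, settings and a genome build not given in the sources used here could not be checked. A comparison table deposited by the authors holds log2 group means and fold changes with p-values and FDR values. In it 1 p and 4 FDR cells lacked the decimal point and were taken as 1. Its 6 columns of per-array values were not used.

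With 64 control probe sets set aside, limma 3.58.1 (lmFit, eBayes with default settings, group as the one term, R 4.3.3) was fitted to 22746 probe sets on 6 arrays. P-values were adjusted by Benjamini-Hochberg over all of them, with a threshold of 0.05. SEs and 95% intervals are those of the moderated test. The number of arrays limits the precision. In the authors' deposited table the 4 storage probe sets called here have FDR values of 0.0118 to 0.0349.

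Genes were named through Entrez identifiers of the probe table (13436 probe sets) or symbols in the authors' titles (1648), matched to RefSeq names of TAIR10.1. For a gene with several probe sets the brightest was used. The members, the 5 lists and the markers were chosen with earlier results of these data known. The text names every member, the 5 most alike probe sets and, from each list, up to 4 genes that passed, by size of change, or else the 2 largest; names outside this rule are marked as chosen after their values were seen, and the markers serve as checks. No array pair held identical values. Residuals of same-numbered arrays correlated at -0.09, -0.06 and -0.14, so the numbers were not taken to pair samples. The procedure was tested on simulated data. Ratios were tested with scipy 1.17.1, and plots drawn with matplotlib 3.10.9.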

Additional observations from a re-analysis of the deposited data

How the results depend on the processing

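The alternatives were chosen with earlier results of these data known. The count of storage probe sets called lower was 4, and also 4 under a second quantile normalization, median centring, cyclic loess, leaving out the dimmest 40%, an intensity trend, a robust spread, array weights and the authors' deposited statistics. The count was 0 with no moderation of the spread and 0 at an adjusted p under 0.01, and it ran from 0 to 4 with 1 array left out. In limma's fit 4 of the 7 had an unadjusted p under 0.05, as did 4390 of all 22746 probe sets. Without moderation 5 of the 7 did, and with an intensity trend 6. With the replicate number as a block the count called lower was 3, since CRU2 had an adjusted p of 0.0612. The cause was not tested. Over all probe sets 1120 passed, and the count was 1701 after a second quantile normalization and 1784 after cyclic loess. It was 2070 with array weights, 494 with the replicate block, 1 without moderation and 45 at an adjusted p under 0.01, and 4 to 1667 with 1 array left out. The share of higher calls was 59.7%, and 51.2% after median centring and 50.6% after cyclic loess. CRU1, at 0.01, turned to -0.083 after median centring and ran from -0.027 to 0.053 with 1 array left out. SESA1, SESA2, SESA3, SESA4 and CRU2 kept their direction in each of these settings. With 3 arrays a group, an exact permutation test cannot go below 0.1.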
